A study of Homo sapiens with 10 samples.

Results

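The transcripts described here encode cell-surface receptors for neurotrophic factors, together with the anaplastic lymphoma kinase ALK. The members were chosen by gene symbol and are RET, its co-receptors GFRA1, GFRA2 and GFRA3, the neurotrophin receptors NTRK2, NTRK3 and NGFR, and ALK. They are 8 of the 58174 genes in the deposited table, and 6 of them were abundant enough to be tested. RET is the receptor tyrosine kinase that signals for the GDNF family of ligands. A ligand first binds a GFRα protein, which is tethered to the outer face of the cell membrane, and the pair then assembles with RET. NTRK2 (TrkB) and NTRK3 (TrkC) are the kinases that bind BDNF and neurotrophin-3, and NGFR (p75NTR) is a receptor without kinase activity that binds every neurotrophin. ALK is a kinase of the developing sympathetic nervous system, and activating ALK mutations drive a share of neuroblastomas.

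The cells were SH-SY5Y, an established human neuroblastoma line of sympathetic origin that is known to carry an activating ALK mutation, so every group shares it. TDP-43 was depleted by transfection of a targeting siRNA pool (siTDP-43, 3 libraries), with a non-targeting pool as its control (siControl, 3 libraries). Both pools were used at 50 nM over 96 hours. Separately, genome editing gave cells homozygous for the mutation N352S in TDP-43 (2 libraries), which were set against wild type cells (2 libraries). N352S is a substitution in the C-terminal domain of TDP-43, an RNA-binding protein that is lost from the nucleus of affected neurons in amyotrophic lateral sclerosis. Replicates are labelled biological, but no separate cultures or clones are named. The p-values therefore rest on the spread among the sequenced libraries, and an N352S effect cannot be told apart from a difference between edited clones.

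Expression was measured by RNA sequencing and deposited as TPM, a length-corrected share of each library's transcripts. Depth is unknown, and each library had 16711 to 17398 genes at 1 TPM or more. TARDBP, the gene for TDP-43, averaged 64.4 ± 2.91 TPM in siTDP-43 and 255.8 ± 0.43 TPM in siControl libraries (SD, n = 3 each). It averaged 122.6 ± 0.33 TPM in N352S and 200.5 ± 6.97 TPM in wild type libraries (n = 2 each). STMN2, the stathmin-2 gene named in the study's title, averaged 100.3 TPM in siTDP-43 and 750.1 TPM in siControl libraries, and 406.2 TPM in N352S and 742.7 TPM in wild type libraries. The 2 experiments also differ from each other in the levels of several receptors, so each comparison was made within its own experiment. The 12 listed markers of noradrenergic neuroblastoma cells were all tested, and their summed level was 6174 to 6367 TPM in siTDP-43, 5479 to 5676 TPM in siControl, 4981 to 5264 TPM in N352S and 5566 to 5650 TPM in wild type libraries. One secretory granule gene, CHGA, took 2267 to 2399 TPM of this sum in siTDP-43 and 1603 to 1683 TPM in siControl libraries. Of the 12 markers, 5 were higher, CHGA among them, and 3 were lower in siTDP-43 (limma, adjusted p under 0.05). Over all tested genes, 6.19% were higher and 19.8% lower. In these bulk samples, fewer cells of a type and less RNA per cell cannot be told apart.

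The sequences upstream of RET and ALK are shown because those kinases moved together in both comparisons, and those of GFRA3 and NTRK2 because these moved otherwise. As the windows were picked by these outcomes, a contrast between them is no test. The part of the promoters in the receptor differences was not tested. Each runs from 250 bases before to 50 bases after the 5′-most start of the gene in RefSeq (assembly GRCh38.p14), 5′ to 3′ on the strand of the gene. RefSeq entries numbered 2 for RET, 2 for ALK, 1 for GFRA3 and 4 for NTRK2. The start used in these cells is unknown. Capitals mark matches on either strand to the GC box GGGCGG, bound by Sp1-type factors, and to the E-box CAGCTG. Neighbouring matches in the RET run overlap by up to 1 base. The RET window is chr10:43076819-43077118 (plus strand), the ALK window chr2:29921537-29921836 (minus strand), the GFRA3 window chr5:138274572-138274871 (minus strand) and the NTRK2 window chr9:84669056-84669355 (plus strand).
RET: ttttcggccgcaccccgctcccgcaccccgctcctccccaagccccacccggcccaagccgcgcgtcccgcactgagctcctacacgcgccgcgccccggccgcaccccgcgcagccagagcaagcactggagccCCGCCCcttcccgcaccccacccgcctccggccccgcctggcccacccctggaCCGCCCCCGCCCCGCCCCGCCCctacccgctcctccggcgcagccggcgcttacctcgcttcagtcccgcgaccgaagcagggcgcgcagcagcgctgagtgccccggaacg
ALK: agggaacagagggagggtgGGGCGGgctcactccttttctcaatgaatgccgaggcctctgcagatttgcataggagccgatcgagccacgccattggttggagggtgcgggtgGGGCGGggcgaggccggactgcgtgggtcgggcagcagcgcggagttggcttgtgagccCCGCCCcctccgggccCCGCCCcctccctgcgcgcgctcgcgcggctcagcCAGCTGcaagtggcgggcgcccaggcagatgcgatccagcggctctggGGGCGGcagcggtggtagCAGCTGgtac
GFRA3: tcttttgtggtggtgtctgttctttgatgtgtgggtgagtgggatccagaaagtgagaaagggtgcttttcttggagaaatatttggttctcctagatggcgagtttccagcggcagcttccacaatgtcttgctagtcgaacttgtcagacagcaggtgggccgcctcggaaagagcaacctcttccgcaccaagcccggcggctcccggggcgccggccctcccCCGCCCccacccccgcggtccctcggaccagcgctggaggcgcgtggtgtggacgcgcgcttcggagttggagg
NTRK2: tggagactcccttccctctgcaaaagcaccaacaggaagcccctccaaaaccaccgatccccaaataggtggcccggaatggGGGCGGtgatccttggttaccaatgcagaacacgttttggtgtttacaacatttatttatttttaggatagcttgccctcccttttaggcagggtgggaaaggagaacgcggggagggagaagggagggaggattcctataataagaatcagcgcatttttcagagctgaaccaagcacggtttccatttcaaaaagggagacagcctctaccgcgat
The RET window held 5 GC boxes, 4 of them in a run whose first bases lie at -62, -56, -51 and -46 from the start, and had a GC content of 78.7%. The ALK window also held 5 GC boxes, with a GC content of 71.0%, and it held 2 CAGCTG E-boxes, whose first bases lie at -26 and 41 from the start. GFRA3 and NTRK2 had 1 GC box each, at -24 and -168, and GC contents of 61.3% and 50.0%. Over all 35116 RefSeq promoter windows, 45.0% held a GC box and 17.9% a CAGCTG E-box, and the median GC content was 58.7%. The share of windows with 5 GC boxes was not counted. Neither the homeodomain core TAATTA nor the TATA box TATAAA was found on either strand in the 4 windows shown. Of the windows not shown, NTRK3 held 2 GC boxes, and GFRA1 held no GC box and 1 TAATTA. A match describes the letters of a window and is not evidence of binding.

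RET was the most abundant member in every library. It was also the first of 58 listed receptor tyrosine kinases by mean TPM in all 4 groups. RET made up 22.7 ± 0.48% of the summed TPM of those kinases in siTDP-43, 26.3 ± 0.77% in siControl, 43.1 ± 1.43% in N352S and 39.4 ± 0.17% in wild type libraries (SD over libraries). ALK ranked 7 in siTDP-43, 6 in siControl, 3 in N352S and 4 in wild type libraries. NTRK2 ranked 30 in siTDP-43, 29 in siControl, 25 in N352S and 38 in wild type libraries. GFRA3 was the main GFRα transcript, with 96.5 ± 0.75% of the summed GFRA1, GFRA2 and GFRA3 TPM in siTDP-43, 86.5 ± 2.22% in siControl, 84.8 ± 1.77% in N352S and 85.7 ± 3.25% in wild type libraries. GFRA1 and NTRK3 stayed below 1 TPM in every library.

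**Figure D1:**
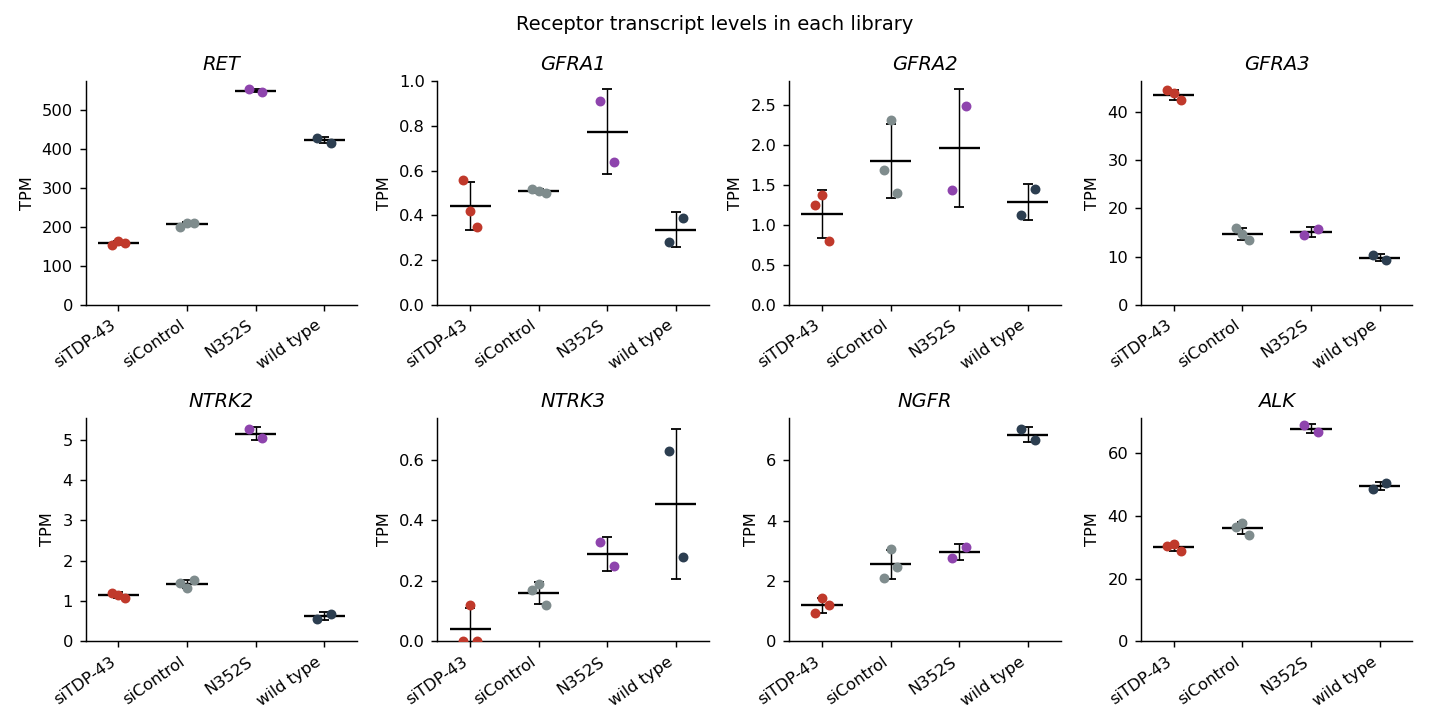
TPM of each of the 8 receptors (vertical axes, each starting at 0) in siTDP-43, siControl, N352S and wild type libraries. Dots are libraries, the horizontal line is the group mean and the bars are SDs. RET and ALK are lower in siTDP-43 than in siControl and higher in N352S than in wild type libraries, GFRA3 is higher in siTDP-43 and in N352S than in its control, and NTRK2 is high in the N352S pair.

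Loss of TDP-43 was accompanied by lower RET, ALK and NGFR and higher GFRA3. Of the 6 tested members, 1 was higher and 3 were lower in siTDP-43 libraries (limma, Benjamini-Hochberg adjusted p under 0.05 over all tested genes), and GFRA2 and NTRK2 did not pass. Over all 17118 tested genes, 26.0% were called, 6.19% higher and 19.8% lower. When libraries were rescaled by median of ratios, the called genes numbered 1935 higher and 2076 lower, against 1059 higher and 3389 lower with the deposited values, and the same 4 members kept their calls and directions. Fold changes are log2 differences on the log2(TPM + 1) scale with the SE of the fit, and the median over all tested genes was -0.08.

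RET (ENSG00000165731, hg38 chromosome 10, 43077027 to 43130351, plus strand) had 152, 163 and 159 TPM in siTDP-43 libraries, against 200.4, 211 and 210.2 TPM in siControl libraries. Every siTDP-43 library lay below every siControl library. The knockdown level was 76.4% of control, a log2 difference of -0.39 ± 0.04 (95% interval -0.47 to -0.31; adjusted p = 0.00015). Across 20 alternative settings and left-out libraries the difference stayed between -0.41 and -0.30, and each one kept the call.

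ALK (ENSG00000171094, chromosome 2, 29192774 to 29921566, minus strand) had 30.3, 30.9 and 28.7 TPM in siTDP-43 libraries, against 36.5, 37.8 and 33.9 TPM in siControl libraries. The groups did not overlap, and the gap between the nearest libraries was small. ALK was at 83.0% of control, a log2 difference of -0.26 ± 0.05 (-0.37 to -0.15; adjusted p = 0.0057), and its adjusted p reached 0.047 in the least favourable of 20 alternatives. The gene spans 728.8 kb, the longest of the members, and overlaps 3 annotated transcripts that stayed at or below 0.55 TPM in every library.

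NGFR (ENSG00000064300, chromosome 17, 49495293 to 49515017, plus strand) had 0.95, 1.44 and 1.20 TPM in siTDP-43 libraries, against 2.10, 3.07 and 2.48 TPM in siControl libraries. The level in knockdown cells was 46.9% of control with no overlap between groups. The log2 difference was -0.69 ± 0.13 (-0.99 to -0.39; adjusted p = 0.0054). At these low levels the log2(TPM + 1) scale understates the change: with a pseudocount of 0.1 the difference was the lowest of all alternatives, -1.03.

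GFRA3 (ENSG00000146013, chromosome 5, 138252379 to 138274671, minus strand), the co-receptor that binds artemin, went the other way. It had 44.5, 43.9 and 42.5 TPM in siTDP-43 libraries, against 15.8, 14.7 and 13.5 TPM in siControl libraries. The lowest knockdown library was far above the highest control library. Mean GFRA3 was 2.97 times the control level, a log2 difference of 1.51 ± 0.07 (1.36 to 1.67; adjusted p = 3.8e-06), and it stayed between 1.31 and 1.60 in 20 alternatives. With lower RET and higher GFRA3, RET had 3.50 ± 0.19 TPM per TPM of summed GFRα transcript in siTDP-43, against 12.3 ± 1.27 in siControl libraries (SD, n = 3 each; ranges 3.29 to 3.65 and 11.1 to 13.6).

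GFRA2 (ENSG00000168546, chromosome 8, 21690403 to 21812357, minus strand), the co-receptor for neurturin, had 1.25, 1.37 and 0.80 TPM in siTDP-43 libraries, against 1.69, 2.31 and 1.40 TPM in siControl libraries. The groups came close to each other without overlapping. The log2 difference was -0.38 ± 0.19 (-0.82 to 0.05; adjusted p = 0.18), an interval that holds both no change and the fall seen for RET. All 6 tested members had groups that did not overlap, as did 43.6% of all tested genes.

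NTRK2 (ENSG00000148053, chromosome 9, 84668551 to 85027070, plus strand) had 1.21, 1.16 and 1.08 TPM in siTDP-43 libraries, against 1.45, 1.32 and 1.52 TPM in siControl libraries. The log2 difference of -0.18 ± 0.11 (-0.42 to 0.06; adjusted p = 0.26) did not pass, and it passed in 1 of 19 alternatives, without the mean-variance trend (adjusted p = 0.048). Gene-level TPM cannot separate the full-length TrkB kinase from its truncated isoforms.

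GFRA1 (ENSG00000151892, chromosome 10, 116056925 to 116273467, minus strand), the co-receptor for GDNF, was not tested. It had 0.56, 0.42 and 0.35 TPM in siTDP-43 libraries and 0.52, 0.51 and 0.50 TPM in siControl libraries, and the groups overlapped. NTRK3 (ENSG00000140538, chromosome 15, 87859751 to 88256768, minus strand) was not tested either, and was listed at 0, 0.12 and 0 TPM in siTDP-43 and at 0.17, 0.19 and 0.12 TPM in siControl libraries. With no filter on low values, their log2 differences were -0.07 (adjusted p = 0.80) for GFRA1 and -0.16 (adjusted p = 0.43) for NTRK3.

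N352S cells had more RET, ALK, GFRA3 and NTRK2 and less NGFR than wild type cells. Of the 6 tested members, 4 were higher and 1 was lower, against 8.28% higher and 11.9% lower, 20.2% in all, over all tested genes. The median log2 difference over all tested genes was -0.03. Groups did not overlap for 5 of the 6 tested members, as for 60.1% of all tested genes.

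NTRK2 had 5.26 and 5.04 TPM in N352S libraries, against 0.56 and 0.69 TPM in wild type libraries. Both N352S libraries stood above all 8 others, siRNA libraries included. The mean was 8.24 times the wild type level, a log2 difference of 1.92 ± 0.13 (1.63 to 2.22; adjusted p = 2.1e-05). Its size depended on the scale for low values, between 0.85 with a pseudocount of 5 and 2.86 with a pseudocount of 0.1, and all 18 alternatives kept the call.

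RET had 554 and 547 TPM in N352S libraries, against 429 and 417 TPM in wild type libraries. The pairs were far apart relative to the gap within each. The N352S level was 130.1% of wild type, a log2 difference of 0.38 ± 0.04 (0.28 to 0.48; adjusted p = 0.00043). ALK had 68.7 and 66.6 TPM in N352S libraries, against 48.6 and 50.4 TPM in wild type libraries. It stood at 136.7% of wild type, a log2 difference of 0.44 ± 0.06 (0.30 to 0.58; adjusted p = 0.0013).

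GFRA3 had 14.4 and 15.8 TPM in N352S libraries, against 10.3 and 9.24 TPM in wild type libraries. This was a rise to 1.55 times the wild type level (log2 0.58 ± 0.08, interval 0.39 to 0.77; adjusted p = 0.0016). The ratio of RET to summed GFRα TPM was 28.9 and 33.1 in N352S libraries and 36.6 and 37.6 in wild type libraries. NGFR had 2.77 and 3.14 TPM in N352S libraries, against 7.03 and 6.67 TPM in wild type libraries. Its mutant level was 43.1% of wild type (log2 -0.99 ± 0.16, interval -1.36 to -0.63; adjusted p = 0.0030).

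GFRA2 was not separated by genotype, with 1.44 and 2.49 TPM in N352S and 1.13 and 1.45 TPM in wild type libraries (log2 0.35 ± 0.23, interval -0.18 to 0.89; adjusted p = 0.33). GFRA1 had 0.91 and 0.64 TPM in N352S libraries, both above the wild type values of 0.28 and 0.39 TPM. With no filter on low values its log2 difference was 0.41 (adjusted p = 0.075). NTRK3 had 0.33 and 0.25 TPM in N352S and 0.63 and 0.28 TPM in wild type libraries, which overlapped.

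The knockdown effect and the N352S effect were compared directly as a difference of differences. The test passed for 4 of the 6 tested members, 1 with a more positive knockdown effect and 3 with a more negative one, and for 22.0% of all tested genes (8.20% and 13.8%). RET fell in knockdown cells and rose in N352S cells, and its effects differed by -0.77 ± 0.06 (-0.89 to -0.64; adjusted p = 3.5e-05). ALK did the same, with a difference of -0.70 ± 0.08 (-0.88 to -0.52; adjusted p = 0.00041). NTRK2 rose in N352S cells and was not called in the knockdown, and its effects differed by -2.10 ± 0.17 (-2.48 to -1.72; adjusted p = 5.8e-05). GFRA3 rose in both, by 0.93 ± 0.11 more in knockdown cells (0.69 to 1.18; adjusted p = 0.00048). NGFR fell in both, and its effects did not differ past the threshold, at 0.30 ± 0.21 (-0.17 to 0.77; adjusted p = 0.35). For GFRA2 the difference was -0.74 ± 0.30 (-1.42 to -0.05; adjusted p = 0.12).

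**Figure D2:**
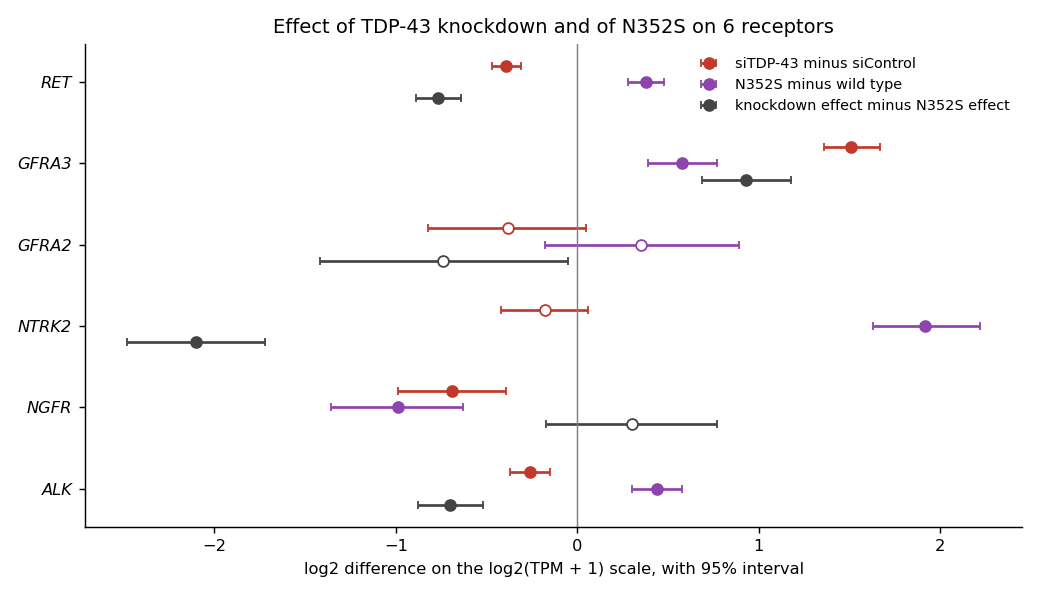
Log2 differences on the log2(TPM + 1) scale (horizontal axis) with 95% intervals for the 6 tested receptors, for the knockdown (siTDP-43 minus siControl), for the mutation (N352S minus wild type) and for the knockdown effect minus the N352S effect. Filled symbols passed an adjusted p of 0.05 over all tested genes. RET and ALK lie left of 0 in the knockdown and right of 0 in N352S, whereas GFRA3 lies right of 0 and NGFR left of 0 in both.

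Set in order of level over all 4 groups, RET and ALK shared 1 order, with N352S highest, then wild type, siControl and siTDP-43, and no neighbouring groups overlapped. NTRK2 ran from N352S through siControl and siTDP-43 to wild type with no overlap between neighbours. GFRA3 was highest in siTDP-43 and lowest in wild type libraries, and its N352S and siControl levels overlapped between them. NGFR was highest in wild type and lowest in siTDP-43 libraries, again with N352S and siControl overlapping. GFRA1 was highest in N352S libraries and its other 3 groups overlapped in turn. GFRA2 overlapped between every pair of neighbours in its order of N352S, siControl, wild type and siTDP-43. NTRK3 separated only between the genotype libraries and the siRNA libraries. Levels across the experiments were not tested.

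Other receptor tyrosine kinases were read against all 17118 tested genes, of which 6.19% were called higher and 19.8% lower in siTDP-43, and 8.28% higher and 11.9% lower in N352S. Leaving out RET, NTRK2, NTRK3 and ALK, 33 listed kinases were tested. In siTDP-43 libraries 3 were higher and 12 lower, with a median log2 difference of -0.20. With the replicate number as a block these counts were 1 higher and 7 lower, and leaving out 1 library at a time gave 0 to 3 higher and 9 to 12 lower, with none higher without siTDP-43 replicate 1. Without siControl replicate 2, siTDP-43 replicate 2 or 3, or wild type replicate 79 or 80, 1 was higher. Median-of-ratios scaling gave 4 higher and 10 lower, and quantile normalization 4 higher and 9 lower. In N352S libraries 5 were higher and 1 lower, with a median of 0.07. None was lower without wild type replicate 79 or 80, and 2 were lower without N352S replicate 81. PDGFRA, a receptor for platelet-derived growth factors, averaged 22.8 TPM in siTDP-43 and 32.1 TPM in siControl libraries (log2 -0.48; adjusted p = 0.00049). It averaged 36.4 TPM in N352S and 25.0 TPM in wild type libraries (log2 0.52; adjusted p = 0.00094). EGFR, the epidermal growth factor receptor, averaged 13.1 TPM in siTDP-43 and 17.7 TPM in siControl libraries (log2 -0.40; adjusted p = 0.0020), and 15.9 TPM in N352S and 7.64 TPM in wild type libraries (log2 0.96; adjusted p = 5.1e-05). The insulin receptor INSR averaged 3.17 TPM in siTDP-43 and 6.27 TPM in siControl libraries (log2 -0.81; adjusted p = 0.0016). The insulin receptor-related INSRR averaged 25.5 TPM in N352S and 11.4 TPM in wild type libraries (log2 1.10; adjusted p = 0.00044). The neuronal kinase AATK averaged 7.50 TPM in siTDP-43 and 11.3 TPM in siControl libraries (log2 -0.54; adjusted p = 0.0015).

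**Figure D3:**
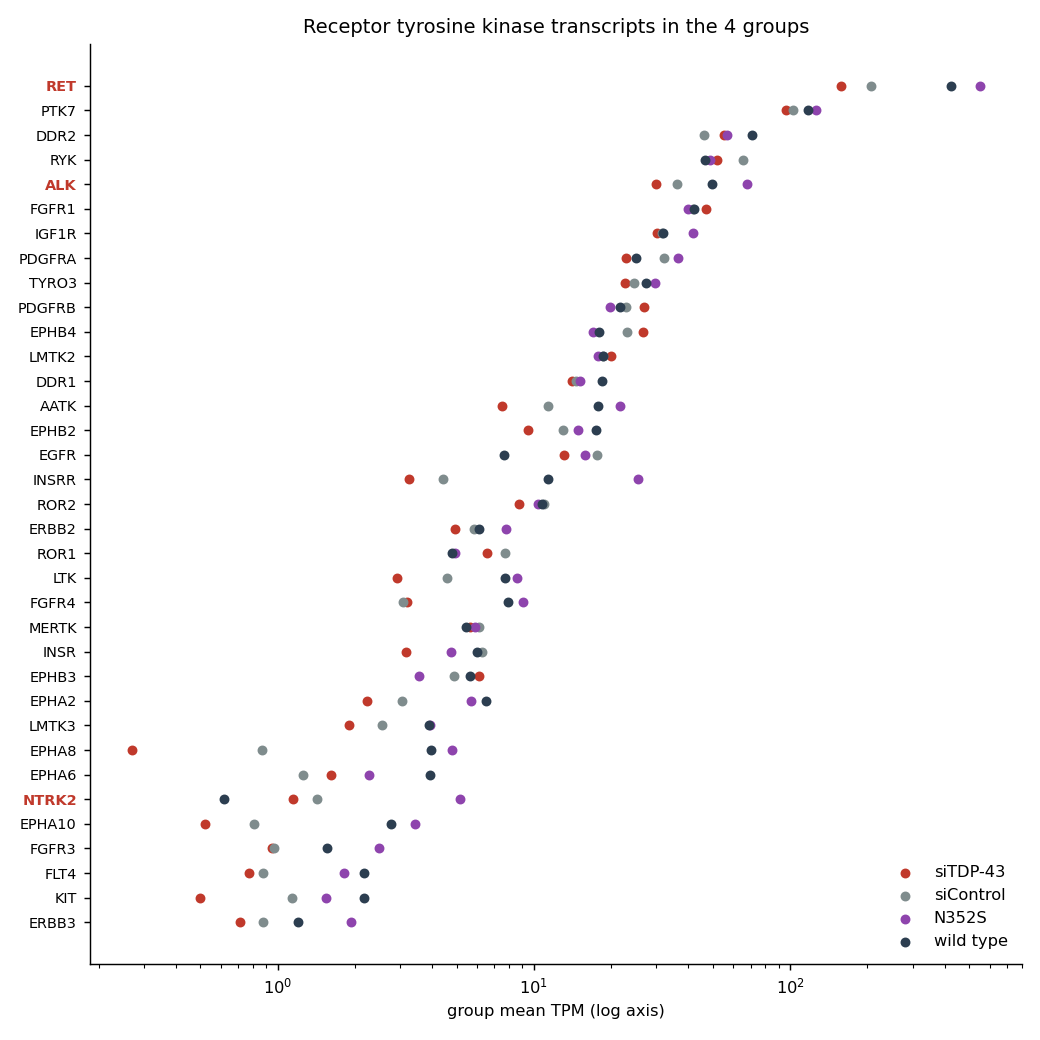
Group mean TPM (log axis) of tested receptor tyrosine kinases, ordered by the mean of the 4 group means, with RET, ALK and NTRK2 in bold. RET is the rightmost symbol in all 4 groups, and the N352S mean of NTRK2 lies apart from its other 3 means.

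The ligands of these receptors were scarce. Of 9 listed ligands (GDNF family, neurotrophins and GDF15), 5 were tested. The summed level of all 9 was 10.7 to 12.6 TPM in siTDP-43 and 12.0 to 13.5 TPM in siControl libraries. It was 22.1 to 25.0 TPM in N352S and 12.9 to 13.6 TPM in wild type libraries. Of the 5 tested, 1 was higher and 2 were lower in siTDP-43 libraries (median 0.26). In N352S libraries 2 of them were higher and none lower (median 0.07). Over all tested genes, 6.19% were higher and 19.8% lower in siTDP-43, and 8.28% and 11.9% in N352S. With the replicate number as a block, none was higher and 1 was lower in siTDP-43. Leaving out siControl replicate 2 or 3 or any siTDP-43 library gave 1 higher and 1 lower. In N352S 1 was higher without wild type replicate 79 or N352S replicate 82. NRTN, neurturin, averaged 3.17 TPM in siTDP-43 and 5.21 TPM in siControl libraries (log2 -0.58; adjusted p = 0.011). It averaged 9.90 TPM in N352S and 5.28 TPM in wild type libraries (log2 0.78; adjusted p = 0.0085), with an adjusted p of 0.050 without wild type replicate 79 and of 0.052 without N352S replicate 82, both short of the threshold. GDF15, a stress-induced ligand that signals through GFRAL and RET, averaged 2.53 TPM in siTDP-43 and 1.25 TPM in siControl libraries (log2 0.65; adjusted p = 0.0048), and the replicate block ended this call (adjusted p = 0.055). It averaged 9.44 TPM in N352S and 3.84 TPM in wild type libraries (log2 1.11; adjusted p = 0.0011), while GFRAL did not exceed a group mean of 0.02 TPM. BDNF averaged 1.52 TPM in siTDP-43 and 2.38 TPM in siControl libraries (log2 -0.42; adjusted p = 0.032), and 10 of 19 alternatives ended this call, the replicate block among them (adjusted p = 0.064). ARTN, artemin, the ligand of GFRA3, averaged 1.59 TPM in siTDP-43 and 1.21 TPM in siControl libraries (log2 0.26; adjusted p = 0.40). GDNF itself did not exceed a group mean of 0.01 TPM.

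Of the ALK ligands, ALKAL1 was listed at 0 in every library and ALKAL2 averaged 0.39 TPM in siTDP-43, 0.41 TPM in siControl, 0.76 TPM in N352S and 0.79 TPM in wild type libraries. Their list, with the growth factors MDK and PTN and the ALK-related kinase LTK, had 3 tested genes. In siTDP-43 libraries 1 was higher and 1 lower (median 0.08; 2 higher and 1 lower under median-of-ratios scaling), and in N352S libraries 1 was higher (median 0.13). The shares over all tested genes were 6.19% higher and 19.8% lower in siTDP-43, and 8.28% and 11.9% in N352S. PTN, pleiotrophin, averaged 67.7 TPM in siTDP-43 and 41.6 TPM in siControl libraries (log2 0.69; adjusted p = 0.00022). It averaged 76.2 TPM in N352S and 46.6 TPM in wild type libraries (log2 0.70; adjusted p = 0.00062). MDK, midkine, was abundant and did not pass in either comparison, with 1038 TPM in siTDP-43 and 982 TPM in siControl libraries (adjusted p = 0.14). LTK averaged 2.93 TPM in siTDP-43 and 4.57 TPM in siControl libraries (log2 -0.51; adjusted p = 0.011).

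Other receptors and co-receptors for the same ligands had 11 tested genes. None was higher and 6 were lower in siTDP-43 libraries (median -0.23), beside 6.19% and 19.8% of all tested genes. Median-of-ratios scaling gave 1 higher and 4 lower. In N352S libraries 5 were higher and 2 lower (median 0.11), beside 8.28% and 11.9% of all tested genes. There, 4 were higher and none lower without wild type replicate 79. Without wild type replicate 80, N352S replicate 81 or 82, siControl replicate 2 or siTDP-43 replicate 1, 1 was lower. NCAM1, an adhesion molecule that also binds GDNF with GFRα, averaged 71.2 TPM in siTDP-43 and 87.7 TPM in siControl libraries (log2 -0.30; adjusted p = 0.00062). It averaged 111.6 TPM in N352S and 85.8 TPM in wild type libraries (log2 0.37; adjusted p = 0.00057). SORCS1, a sorting receptor of the sortilin family, averaged 68.1 TPM in siTDP-43 and 85.8 TPM in siControl libraries (log2 -0.33; adjusted p = 0.00031). In the genotype libraries it averaged 87.0 TPM in N352S and 71.1 TPM in wild type (log2 0.29; adjusted p = 0.0020). SORT1, sortilin, which pairs with NGFR to bind pro-neurotrophins, averaged 24.6 TPM in siTDP-43 and 31.7 TPM in siControl libraries (log2 -0.35; adjusted p = 0.0010). The NGFR-interacting protein BEX3 averaged 279 TPM in siTDP-43 and 327 TPM in siControl libraries (log2 -0.23; adjusted p = 0.00070), and MAGED1, another NGFR partner, averaged 376 TPM in N352S and 306 TPM in wild type libraries (log2 0.30; adjusted p = 0.0050).

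Adaptors bind the activated receptors and pass the signal on. Of 25 tested adaptors and docking proteins, 1 was higher and 9 were lower in siTDP-43 libraries (median -0.06), beside 6.19% and 19.8% of all tested genes. Of these, 3 were lower under median-of-ratios scaling and 4 under quantile normalization. In N352S libraries 3 were higher and 6 lower (median -0.01), beside 8.28% and 11.9% of all tested genes. There, none was higher without wild type replicate 80 or without N352S replicate 82. Without wild type replicate 79, N352S replicate 81 or siTDP-43 replicate 1, 1 was higher. FRS2, a docking protein of RET and Trk receptors, averaged 16.2 TPM in siTDP-43 and 24.1 TPM in siControl libraries (log2 -0.55; adjusted p = 0.0027). SOS1, an activator of Ras, averaged 29.0 TPM in siTDP-43 and 38.6 TPM in siControl libraries (log2 -0.41; adjusted p = 0.0095), whereas its relative SOS2 averaged 31.3 TPM in siTDP-43 and 26.8 TPM in siControl libraries (log2 0.22; adjusted p = 0.0048). SHC2, an adaptor of neurons, averaged 23.9 TPM in siTDP-43 and 30.2 TPM in siControl libraries (log2 -0.33; adjusted p = 0.0076). CBLB, a ubiquitin ligase that acts on activated receptors, averaged 9.30 TPM in N352S and 17.6 TPM in wild type libraries (log2 -0.86; adjusted p = 0.00057). GRB2, which links receptors to SOS proteins, averaged 99.6 TPM in N352S and 131.2 TPM in wild type libraries (log2 -0.40; adjusted p = 0.0049). The adaptor CRK averaged 41.8 TPM in N352S and 52.5 TPM in wild type libraries (log2 -0.32; adjusted p = 0.0033).

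The Ras-ERK and PI3K-AKT core had 25 tested genes. In siTDP-43 libraries 2 were higher and 5 lower (median -0.06), beside 6.19% and 19.8% of all tested genes. In N352S libraries 1 was higher and 2 were lower (median -0.10), beside 8.28% and 11.9%. These counts were near or below those shares, so they are not read as a result about the list. In siTDP-43 1 was higher without siControl replicate 1 or 2 or any siTDP-43 library. In N352S none was higher and 4 were lower without wild type replicate 80, and 2 were higher without siControl replicate 1 or 3. The kinase AKT2 had a log2 difference of -0.30 (adjusted p = 0.0012) and NRAS of -0.36 (adjusted p = 0.0031), both lower in siTDP-43 libraries. The PI3K regulatory subunit gene PIK3R2 was higher there (log2 0.19; adjusted p = 0.0026). In the genotype comparison PIK3R1 averaged 22.8 TPM in N352S and 37.4 TPM in wild type libraries (log2 -0.70; adjusted p = 0.00094), and MTOR averaged 20.1 TPM in N352S and 33.8 TPM in wild type libraries (log2 -0.72; adjusted p = 0.00046). The third called gene was RPS6KA2, a kinase activated by ERK, which was higher in N352S libraries (log2 0.32; adjusted p = 0.0064). That call ended without wild type replicate 80.

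Genes known as transcriptional output of the ERK pathway had 20 tested members. In siTDP-43 libraries 2 were higher and 10 lower (median -0.28), beside 6.19% and 19.8% of all tested genes. Median-of-ratios scaling gave 4 higher and 7 lower. Without siControl replicate 1 or 2, or siTDP-43 replicate 1 or 3, 1 was higher and 7 to 11 were lower. In N352S libraries 11 were higher and 3 lower (median 0.32), beside 8.28% and 11.9% of all tested genes, and 6 were higher and 3 lower with a minimum mean of 5 TPM. DUSP4, a phosphatase of ERK, averaged 17.5 TPM in siTDP-43 and 24.2 TPM in siControl libraries (log2 -0.44; adjusted p = 0.00051). It averaged 39.5 TPM in N352S and 23.9 TPM in wild type libraries (log2 0.70; adjusted p = 0.00012). JUNB, an AP-1 subunit, averaged 17.0 TPM in siTDP-43 and 23.4 TPM in siControl libraries (log2 -0.44; adjusted p = 0.00013). SPRY2, a feedback inhibitor of receptor signalling, was lower in siTDP-43 libraries (log2 -0.30; adjusted p = 0.0019) and higher in N352S libraries (log2 0.32; adjusted p = 0.0046). The immediate-early gene EGR1 averaged 10.0 TPM in N352S and 2.68 TPM in wild type libraries (log2 1.58; adjusted p = 0.00019). MYC, SPRED2 and the ETS factor ETV1 were the 3 lower in N352S, and ETV1 and CCND1 the 2 higher in siTDP-43. MYC was lower in both comparisons (log2 -0.40, adjusted p = 0.00044 in siTDP-43; log2 -0.56, adjusted p = 0.00020 in N352S). SPRED2, an inhibitor of Ras-ERK signalling, was also lower in both (log2 -0.24, adjusted p = 0.0096 in siTDP-43; log2 -0.24, adjusted p = 0.029 in N352S), and leaving out wild type replicate 79 or N352S replicate 81 or 82 ended its N352S call. CCND1, cyclin D1, was higher in both (log2 0.17, adjusted p = 0.033 in siTDP-43; log2 0.30, adjusted p = 0.0084 in N352S). Its siTDP-43 call ended without siControl replicate 1 or 2 or siTDP-43 replicate 1 or 3, and its N352S call without N352S replicate 81. ETV1 averaged 27.6 TPM in siTDP-43 and 19.2 TPM in siControl libraries (log2 0.50; adjusted p = 0.0022), and 9.02 TPM in N352S and 23.8 TPM in wild type libraries (log2 -1.31; adjusted p = 3.7e-05).

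RET is known to be induced by retinoic acid in neuroblastoma cells. The retinoic acid list, which includes RET, had 12 tested genes. In siTDP-43 libraries 2 were higher and 7 lower (median -0.38), beside 6.19% and 19.8% of all tested genes. In N352S libraries 3 were higher and 2 lower (median 0.12), beside 8.28% and 11.9%. RET itself was among the 7 lower in siTDP-43 and the 3 higher in N352S, so these counts partly restate RET. Leaving out 1 library at a time gave 6 to 8 lower in siTDP-43. DHRS3, a retinaldehyde reductase induced by retinoic acid, averaged 1.14 TPM in siTDP-43 and 3.01 TPM in siControl libraries (log2 -0.91; adjusted p = 0.00038). The retinoic acid-binding protein CRABP2 averaged 25.9 TPM in siTDP-43 and 35.5 TPM in siControl libraries (log2 -0.44; adjusted p = 0.00040), and 16.5 TPM in N352S and 40.6 TPM in wild type libraries (log2 -1.25; adjusted p = 2.9e-06). CRABP1 was also lower in both (log2 -0.38, adjusted p = 0.00088 in siTDP-43; log2 -0.60, adjusted p = 0.00024 in N352S). The receptor gene RARA was higher in both (log2 0.42, adjusted p = 0.0027 in siTDP-43; log2 0.50, adjusted p = 0.0040 in N352S).

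**Figure D4:**
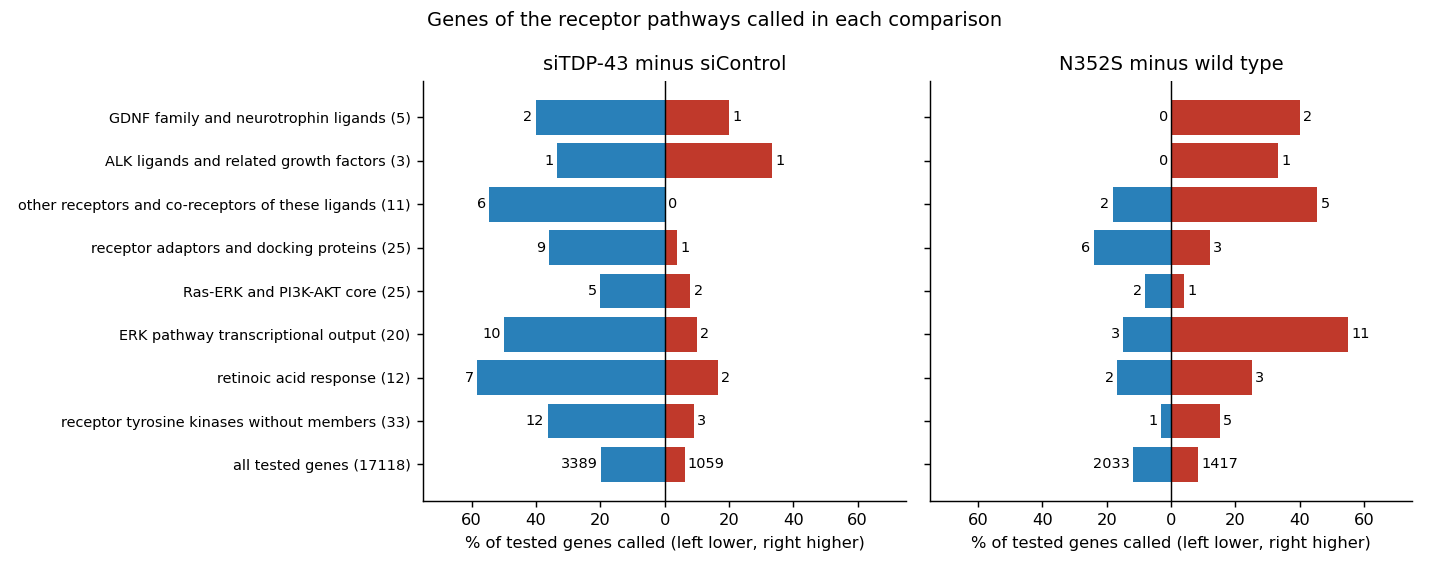
Percent of the tested genes of each list that were called lower (left of 0) or higher (right of 0), for siTDP-43 minus siControl and for N352S minus wild type, with the number of tested genes in parentheses and called genes beside the bars. The ERK output list has 10 lower and 2 higher genes in the knockdown and 3 lower and 11 higher genes in N352S, beside all tested genes in the bottom bar.

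Markers of cell states were counted in the same way. Beside these counts, 6.19% of all tested genes were higher and 19.8% lower in siTDP-43, and 8.28% and 11.9% in N352S. Of 12 noradrenergic markers, 5 were higher and 3 lower in siTDP-43 libraries, and 1 was higher and 5 were lower in N352S libraries. In siTDP-43 3 were higher without siTDP-43 replicate 1 or 3, and in N352S none was higher without wild type replicate 80 or N352S replicate 82. CHGA, chromogranin A, a protein of secretory granules, averaged 2337 TPM in siTDP-43 and 1646 TPM in siControl libraries (log2 0.51; adjusted p = 0.00038). It averaged 875 TPM in N352S and 1151 TPM in wild type libraries (log2 -0.40; adjusted p = 0.0041). PHOX2A, a homeodomain factor of the sympathetic lineage, averaged 407 TPM in siTDP-43 and 522 TPM in siControl libraries (log2 -0.36; adjusted p = 0.0013), and 648 TPM in N352S and 528 TPM in wild type libraries (log2 0.29; adjusted p = 0.011). The N352S call of PHOX2A ended without wild type replicate 80 and without N352S replicate 82. HAND1 averaged 165.6 TPM in siTDP-43 and 108.7 TPM in siControl libraries (log2 0.60; adjusted p = 3.6e-05), and 64.5 TPM in N352S and 102.2 TPM in wild type libraries (log2 -0.66; adjusted p = 4.8e-05). The 11 mesenchymal markers had 8 tested genes, with 2 higher and 2 lower in siTDP-43 (1 lower without siControl replicate 3 or siTDP-43 replicate 1 or 2) and 3 higher and 3 lower in N352S libraries. Their summed level was 679 to 704 TPM in siTDP-43, 671 to 737 TPM in siControl, 924 to 968 TPM in N352S and 546 to 565 TPM in wild type libraries. Most of the N352S sum was VIM, vimentin, an intermediate filament protein, with 688 TPM in N352S and 362 TPM in wild type libraries (log2 0.92; adjusted p = 2.1e-06). TWIST1, a transcription factor of mesenchymal cells, averaged 213 TPM in N352S and 137 TPM in wild type libraries (log2 0.63; adjusted p = 0.0014). SNAI2 was higher as well (log2 1.02; adjusted p = 0.0049), whereas the collagen gene COL3A1 (log2 -1.34; adjusted p = 2.2e-05), YAP1 (log2 -0.71; adjusted p = 0.0043) and CD44 (log2 -1.14; adjusted p = 0.012) were lower in N352S libraries. The CD44 call ended without wild type replicate 80 and without N352S replicate 82. Schwann cell markers summed to 33.1 to 35.4 TPM in siTDP-43, 58.8 to 59.3 TPM in siControl, 67.3 to 70.4 TPM in N352S and 54.9 to 62.7 TPM in wild type libraries. Most of each sum was 1 gene, PMP22. It averaged 28.9 TPM in siTDP-43 and 51.9 TPM in siControl libraries (log2 -0.82; adjusted p = 3e-05). Of the 4 tested Schwann cell markers, none was higher and 2 were lower in siTDP-43 (1 with the replicate block), and 1, the myelin gene PMP22, was higher in N352S libraries (log2 0.31; adjusted p = 0.012). The N352S call of PMP22 ended without wild type replicate 79 and without N352S replicate 82. The defining Schwann cell factor SOX10 averaged 0 TPM in siTDP-43 and siControl, 0.06 TPM in N352S and 0.22 TPM in wild type libraries. The part of these markers in the receptor differences was not tested.

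The genes whose levels ran most like each receptor were ranked by Pearson correlation of log2(TPM + 1) over the 10 libraries. These libraries come from 2 experiments and few groups, so a high value mainly describes a shared order of group means. Nearest to RET were PTPRN2, a dense-core vesicle protein (r = 0.998), the semaphorin receptor PLXNB3 (r = 0.996) and the pseudokinase TRIB2 (r = 0.996). TRIB2 averaged 26.1 TPM in siTDP-43, 33.1 TPM in siControl, 109.0 TPM in N352S and 80.9 TPM in wild type libraries. ALK correlated with RET at 0.979. Nearest to ALK were TNS3, a focal adhesion protein (r = 0.996), GOLGA7B (r = 0.993) and the Polycomb-group protein SFMBT2 (r = 0.992). Nearest to NTRK2 were ISOC1 (r = 0.995), the anion channel subunit LRRC8C (r = 0.99) and LHFPL2 (r = 0.988). ISOC1 averaged 63.5 TPM in siTDP-43, 67.5 TPM in siControl, 177.7 TPM in N352S and 47.8 TPM in wild type libraries. Nearest to NGFR were the zinc finger gene ZFP69B (r = 0.988), the actin regulator CARMIL2 (r = 0.985) and the proteasome ATPase PSMC4 (r = 0.985). Nearest to GFRA3 were the melanocortin receptor MC1R (r = 0.978), OSTM1, a subunit of a lysosomal chloride transporter (r = 0.973), and the mitochondrially encoded MT-ND6 (r = 0.971). MC1R averaged 20.8 TPM in siTDP-43, 5.8 TPM in siControl, 5.7 TPM in N352S and 4.9 TPM in wild type libraries. MC1R overlaps other annotated genes and MT-ND6 lies opposite other mitochondrial transcripts, so reads of both are uncertain without strand. For GFRA2 the highest values were lower, with RGS14 at 0.85, CRAMP1 at 0.848 and AGPAT4 at 0.847.

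Genomic neighbours were compared as a description of the regions. Over all tested genes, 8.28% were higher and 11.9% lower in N352S. The 20 nearest tested protein-coding genes around RET had a median log2 difference of -0.07 in the knockdown and -0.14 in N352S, where 1 was higher and 6 were lower. Those around NTRK2 had medians of -0.11 and -0.05, those around GFRA3 of -0.11 and 0.01, and those around NGFR of -0.05 and -0.06, in the same order of comparisons. The neighbours of ALK had a median of -0.10 in the knockdown and 0.24 in N352S, where 7 were higher and 1 was lower. The rise of ALK in N352S, 0.44, lay among those of its neighbours, and the rise of NTRK2, 1.92, lay above every one of its neighbours. The rise of RET in N352S, 0.38, was also above its highest neighbour, 0.24, while GFRA3 and NGFR lay among theirs there. In the knockdown GFRA3, at 1.51, was above its highest neighbour, 0.27, and NGFR, at -0.69, below its lowest, -0.29. RET, at -0.39, was next to its lowest neighbour, -0.38.

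**Figure D5:**
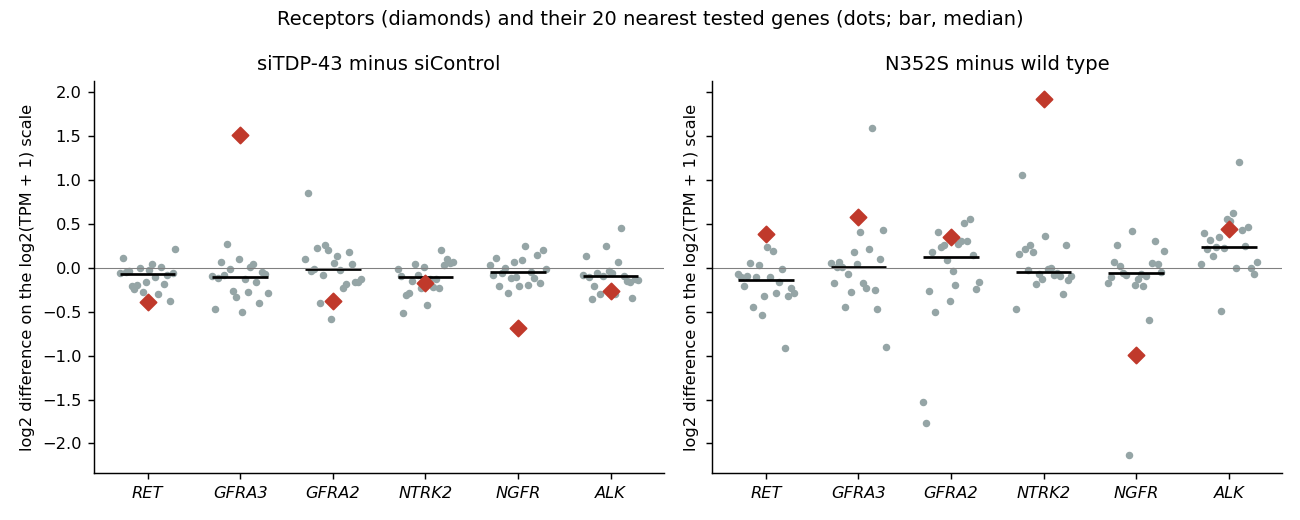
Log2 differences on the log2(TPM + 1) scale of each tested receptor (diamonds) and of the 20 nearest tested protein-coding genes (dots; bar, their median), for siTDP-43 minus siControl and N352S minus wild type. GFRA3 in the knockdown, at 1.51, and NTRK2 and RET in N352S, at 1.92 and 0.38, lie above all of their neighbours. NGFR in the knockdown lies below all of its neighbours, and ALK in N352S lies among its neighbours.

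TDP-43 is known to bind UG-rich RNA, so the density of TGTGTG was counted in the longest GENCODE protein-coding transcript of each member. GFRA2 had 3.45 and NTRK3 2.35 occurrences per kb, densities that 1.4% and 3.1% of 12682 tested protein-coding genes reached. RET had 0.71, NGFR 0.59, GFRA3 0.49, NTRK2 0.46, GFRA1 0.33 and ALK 0.32 per kb, against a median of 0.39 over those genes. GFRA2, with the highest density, was not called in either comparison. Its intervals were wide, at -0.82 to 0.05 in the knockdown and -0.18 to 0.89 in N352S, so a change is not excluded. NTRK3 was not tested. The part of these densities in the receptor differences was not tested. Introns were not searched, and a match is not evidence of binding.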

How the data were processed

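Per the labels' protocols, RNA was purified with Trizol and libraries came from a TruSeq RNA kit. The authors deposited 1 table of TPM per gene with 1 column for each of the 10 libraries. Per the submitters' processing notes, the tools were STAR and RSEM and the build was hg38. Their versions, annotation, strand setting and read depth are not given in these sources. TPM are shares of a library, so abundant transcripts that rise lower the values of the others, and they keep no counts, so no counting interval can be given. All columns were matched to samples by title (0 were left unmatched).

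A gene was tested if its mean across all 10 libraries was 1 TPM or more (17118 genes), as log2(TPM + 1) in limma 3.58.1 (R 4.3.3), with 4 group means, a mean-variance trend and 6 residual degrees of freedom, so the genotype pairs are taken to vary like the siRNA libraries. Benjamini-Hochberg adjustment ran over all tested genes, with calls at 0.05. Values after ± are SDs for TPM and SEs for log2 differences, and intervals are at 95%. The fit was tested on simulated data. The members and gene lists were chosen with earlier results of these data known. Named genes are the members, TARDBP and STMN2, up to 4 called genes per list and comparison with the smallest adjusted p, and 3 genes per tested member with the highest correlation; other listed genes named beside a count, a ratio or as a contrast were chosen after their values were seen. The values of some genes that this rule takes are left out. Positions come from GENCODE 29, which held 57836 of the 58174 identifiers (99.4%), and promoters from RefSeq, where entries of 6 members were used.

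The siRNA libraries carry replicate numbers 1 to 3 in their titles. Across genes, same-numbered libraries deviated together from their group means (r = 0.34, 0.14 and 0.20, each over 0.1), so a fit with the numbers as a block was added. The reported knockdown values come from the fit without the block, except where the block is named. Genotype libraries share no numbers. Other settings tried were a pseudocount of 0.1 or 5, no filter or a filter at 5 TPM, scaling by median of ratios, quantile normalization, mitochondrially encoded genes left out, a fit of only the groups compared, no trend, the block, and each library left out in turn. The same settings were run on the gene lists after seeing the data. Figures were drawn with matplotlib 3.10.9.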

Additional observations from a re-analysis of the deposited data

Results flagged for a closer look

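For 4 receptors the effect of TDP-43 knockdown differed from the effect of N352S in a direct test of the difference (limma interaction term, Benjamini-Hochberg adjustment over all tested genes, 3 libraries per siRNA group and 2 per genotype). On the log2(TPM + 1) scale the knockdown effect minus the N352S effect was -0.77 for RET (adjusted p = 3.5e-05) and -0.70 for ALK (adjusted p = 0.00041), each with every siTDP-43 library below every siControl library and every N352S library above every wild type library. It was -2.10 for NTRK2 (adjusted p = 5.8e-05) and 0.93 for GFRA3 (adjusted p = 0.00048), which was higher in every siTDP-43 than in every siControl library and in both N352S than in both wild type libraries. The experiments differ in more than TDP-43 (transfection against genome editing), and the part of that difference was not tested.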

How the results depend on the processing

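No member changed direction under any alternative run. In all, 108 of 114 alternative counts stayed within 1.5 times the reported value. With a minimum mean of 5 TPM, 3 members were called in N352S instead of 5, since NTRK2, NGFR and GFRA2 were then not tested. The same filter took NGFR out of the knockdown calls and NTRK2 out of the calls for the difference of effects. With only the genotype libraries in the fit, 1891 genes were called in N352S instead of 3450. Leaving out 1 library at a time gave 3220 to 4501 called genes for the knockdown, 1832 to 3748 for N352S and 2510 to 3721 for the difference of effects, with 4, 5 and 4 members called each time. The lowest counts for N352S, 1832, and for the difference, 2510, came without wild type replicate 79. N352S counts were 2186 without wild type replicate 80 and 2263 without N352S replicate 82. With the replicate number as a block, the knockdown had 3554 called genes and the same count of 4 members, and the block changed no member's call.

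The share of called genes that were lower moved with scaling. It was 76.2% for the knockdown, against 51.8% under median-of-ratios scaling, 51.1% under quantile normalization and 65.8% without mitochondrially encoded genes. For the difference of effects it was 62.7%, against 52.3%, 49.3% and 52.6% under the same settings. The share was 58.9% for N352S and 49.2% under median-of-ratios scaling. Of 4191 alternatives for single named or listed genes, 3765 kept their side of the threshold, 424 lost a call, 2 gained one (NTRK2 in the knockdown among them) and 0 reversed. The causes were not tested. Depth is unknown, which limits GFRA1, GFRA2, NTRK2, NTRK3 and NGFR most, as they lie at a few TPM or less.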
